A study of Mus musculus with 2 samples.

Results

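The 10 miRNAs described here are the 5p and 3p arms of 5 early-described mouse mirtron hairpins, mir-1224, mir-3102, mir-877, mir-702 and mir-1981. They were chosen by name as mmu-miR-1224-5p, mmu-miR-1224-3p, mmu-miR-3102-5p, mmu-miR-3102-3p, mmu-miR-877-5p, mmu-miR-877-3p, mmu-miR-702-5p, mmu-miR-702-3p, mmu-miR-1981-5p and mmu-miR-1981-3p. All 10 were found among the 1881 mouse miRNAs of the array, and the species prefix is left out below. They were measured in exosomes, membrane vesicles shed by cells, from culture supernatants of the mouse lung cancer line LLC (Lewis lung carcinoma). For 24 h before collection the cells were exposed to cisplatin, which cross-links DNA, at 5 µM without serum. The 2 samples, from independent experiments, formed 1 group and were each put on a single-colour (Cy3) Agilent array. Untreated cells were not analysed here, so the arrays show which mirtron arms gave a signal and how far it repeated, and not what the drug changed. No p-values were computed.

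Mirtrons are short introns that serve as miRNA precursors. After splicing, the intron lariat is debranched and folds into a hairpin that Dicer cuts, so the cleavage by Drosha and DGCR8 that starts the canonical miRNA pathway is bypassed. The 5p arm of a typical mirtron begins at the splice donor, GU, and its 3p arm lies at or near the splice acceptor, AG. Either arm can be loaded into an Argonaute protein, where the seed (bases 2 to 8) pairs with target mRNAs.

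The RefSeq sequences (GRCm38.p6) of 3 of the hairpins are shown because they carry the intron ends that define the class. Capitals mark the first 2 and last 2 bases.
mir-1224, chr16:20604452-20604536, plus strand: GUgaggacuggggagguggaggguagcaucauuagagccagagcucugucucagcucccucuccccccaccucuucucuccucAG
mir-877, chr17:35960730-35960814, minus strand: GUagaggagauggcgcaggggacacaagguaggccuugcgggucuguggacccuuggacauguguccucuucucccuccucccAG
mir-1981, chr1:184822407-184822488, minus strand: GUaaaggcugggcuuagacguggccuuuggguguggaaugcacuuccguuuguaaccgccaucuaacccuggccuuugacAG
Each of these hairpins was GU at one end and AG at the other, as were 2.99% of the 1005 mouse hairpins in the table. The 5p arm began at the first base in all 3, and the 3p arm ended 0 bases before the last base in mir-1224, 1 base before it in mir-877 and 2 bases before it in mir-1981. The registered mir-702 hairpin (chr5:136991433-136991541, plus strand) did not have these ends: it held 9 bases ahead of the 5p arm and ended in other letters. The mir-3102 hairpin (chr7:100882306-100882409, minus strand) is named here without its sequence, which was not at hand, so its last 2 bases were not read. miR-3102-5p, which begins with GU, starts at the first base of that span, and miR-3102-3p ends 1 base before its last. By gene spans in RefSeq, the hairpins lay within Vwa5b2 (mir-1224), Abcf1 (mir-877), Plod3 (mir-702), Arhgef17 (mir-3102) and Mtarc2 (mir-1981), all protein-coding. Exon and intron boundaries of these genes were not analysed here.

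The mature sequences that the results turn on are those of the 5 detected arms and of miR-702-5p, which shares a seed with one of them. Capitals mark the seed.
miR-1224-5p: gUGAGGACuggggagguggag
miR-3102-5p: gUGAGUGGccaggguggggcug
miR-702-5p: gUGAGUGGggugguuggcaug
miR-3102-3p: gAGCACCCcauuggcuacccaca
miR-877-3p: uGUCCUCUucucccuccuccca
miR-702-3p: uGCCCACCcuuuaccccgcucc
miR-3102-5p and miR-702-5p had the seed UGAGUGG in common, and no other name on the array with a RefSeq sequence had it. The seeds of the remaining 8 arms were found in no other such name. All 5 mirtron 5p arms began with GU, as did 5.58% of the 663 5p arms of the array that had a sequence. Of the 3p arms, only miR-1224-3p ended with AG, as did 28.4% of 675 3p arms. The intron ends are what the class is named for, so these shares describe the members and are not results.

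Of the 10 mirtron arms, 5 were detected on both arrays: miR-1224-5p, miR-3102-5p, miR-3102-3p, miR-877-3p and miR-702-3p. A name counted as detected when at least 1 of its probes had a total signal over 3 times the error that the scanner software gave it. Over all 1881 names the share detected on both arrays was 10.7%. The same 5 arms were detected on array 1 and on array 2, where the shares over all names were 16.6% and 10.7%. Detected arms came from either side of the hairpin: 2 of 5 5p arms and 3 of 5 3p arms, with 9.81% of all 5p arms and 9.43% of all 3p arms detected. With 10 members these shares carry wide counting error, and no test was made of whether mirtrons stood apart from other names.

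The hairpins differed in which arm gave a signal. For mir-1224 it was the 5p arm alone, for mir-877 and mir-702 the 3p arm alone, for mir-3102 both arms, and for mir-1981 neither. At least 1 arm was thus detected in 4 of 5 hairpins. Over the 723 hairpins with a 5p and a 3p name on the array, at least 1 arm was detected in 17.4%, both arms in 1.38%, the 5p arm alone in 8.3% and the 3p arm alone in 7.75%. Signals of different probes depend on the probe as well as the amount of RNA, so the arms of a hairpin are compared here by detection only.

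**Figure D1:**
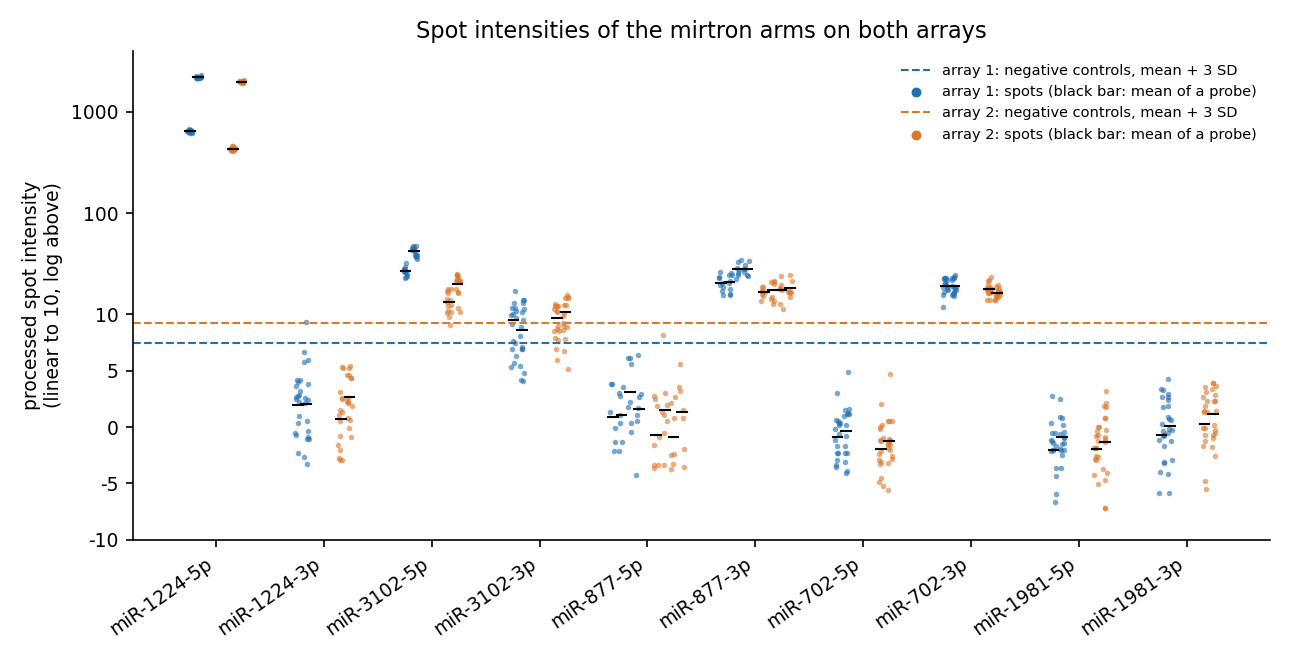
Processed intensity (linear up to 10, logarithmic above) of every spot used for the 10 mirtron arms on array 1 (blue) and array 2 (orange), with a black bar at the mean of each probe and dashed lines at the mean plus 3 SD of the negative-control spots, 7.44 on array 1 and 9.27 on array 2. Spots of miR-1224-5p lie at 409 or more on both arrays, most spots of miR-3102-5p, miR-877-3p and miR-702-3p lie above the upper line, those of miR-3102-3p around the lines and those of the other 5 arms around 0.

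miR-1224-5p was the one arm that passed every detection rule tried. Its first probe had a mean processed intensity of 642 ± 15 (SD over 15 spots) on array 1 and 432 ± 14.2 (SD over 14 spots) on array 2. Its second probe had 2188 ± 43.1 on array 1 and 1982 ± 37.0 on array 2 (SD over 15 spots each). For both probes the lowest spot on array 1 lay above the highest spot on array 2. Spots of an array share 1 RNA sample, so this separation concerns the arrays and not the conditions. The probes did not give the same difference, 1.48-fold for the first and 1.10-fold for the second. Within an array the second probe was 3.41 times as bright as the first on array 1 and 4.58 times on array 2. Every one of its 30 spots on array 1 and 29 spots on array 2 was well above background. The total signal was close to 10 times its error on both arrays, where the ratio levels off because the scanner's error model, per the file headers, holds a part proportional to the signal. The other arm, miR-1224-3p, had probe means of 2.0 and 2.01 on array 1 and of 0.68 and 2.68 on array 2. No spot of miR-1224-3p was well above background, and its highest ratio to the error was 0.92.

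The mir-3102 hairpin was the only one of the 5 with both arms detected. miR-3102-5p had probe means of 26.6 ± 2.59 (SD over 13 spots) and 41.8 ± 4.02 (15 spots) on array 1, against 13.2 ± 3.01 (14 spots) and 19.9 ± 4.49 (15 spots) on array 2. Both probes were about equally brighter on array 1, 2.01-fold and 2.10-fold, and in neither did the spots of the arrays overlap. Of its spots, 28 of 28 were well above background on array 1 and 17 of 29 on array 2. The 3p arm was close to the detection limit on both arrays. miR-3102-3p had probe means of 9.47 ± 3.11 and 8.59 ± 3.40 on array 1 and of 9.67 ± 2.14 and 10.6 ± 3.19 on array 2 (SD over 15 spots each). Its probes lay at 3.19 and 2.92 times their errors on array 1, so that 1 of them passed, and at 3.15 and 3.42 times on array 2, where both did. The spot ranges of the arrays overlapped for both probes, and only 2 of 30 spots were well above background on either array.

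RefSeq gives mir-3102 a second, inner pair of products that lie directly beside the outer ones in the hairpin, miR-3102-5p.2-5p and miR-3102-3p.2-3p. They are on the array under their own names and are not among the 10 members. Neither was detected on both arrays. miR-3102-5p.2-5p reached at most 2.41 times its error on array 1 and 1.19 times on array 2. Its probe means were 6.96 and 6.96 on array 1 and 3.16 and 3.50 on array 2. miR-3102-3p.2-3p was detected on array 1 alone, at 3.54 times its error in 1 of its probes and 2.99 times in the other, and it lay at 2.61 and 2.69 times on array 2. On array 1 the highest ratio of this inner arm was above that of miR-3102-3p, 3.19, and on array 2 it was below it, 3.42, so that array 2 alone put one over the limit and the other under it.

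For mir-877 the 3p arm was measured by 4 probes, which gave a check on the signal within each array. Probe means of miR-877-3p were 20.5, 20.8, 28.1 and 27.9 on array 1 and 16.6, 17.4, 17.3 and 18.2 on array 2, each over 7 or 8 spots with an SD between 1.77 and 4.38. All 4 probes were detected on both arrays, at 5.89 to 7.06 times their errors on array 1 and 4.96 to 5.28 times on array 2. The 4 probes were each brighter on array 1, by 1.20-fold to 1.63-fold, while the spot ranges of the arrays overlapped in every one. miR-877-5p, also with 4 probes, was detected by none of them. Its probe means were 0.92, 1.06, 3.11 and 1.59 on array 1 and -0.71, 1.53, -0.90 and 1.32 on array 2, and its highest ratio to the error was 1.10.

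miR-702-3p differed little between the arrays before scaling. Its probe means were 19.3 ± 3.15 and 19.1 ± 3.16 on array 1 and 18.0 ± 2.74 and 16.3 ± 1.69 on array 2 (SD over 15 spots each), 1.07-fold and 1.17-fold apart with overlapping spots. The ratio to the error lay between 4.90 and 5.66, and 29 of 30 spots on array 1 and 26 of 30 on array 2 were well above background. miR-702-5p, which has the seed of miR-3102-5p, gave probe means of -0.86 and -0.35 on array 1 and of -1.99 and -1.23 on array 2. The detected and the undetected member of this seed pair thus differed on both arrays, but their probes differ too.

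Neither arm of mir-1981 gave a signal. Probe means of miR-1981-5p were -2.01 and -0.90 on array 1 and -1.93 and -1.31 on array 2. Those of miR-1981-3p were -0.66 and 0.08 on array 1 and 0.24 and 1.14 on array 2. Across all 5 undetected arms, 12 probes had means between -2.01 and 3.11, and 0 of 297 spots were well above background. Of these spots, 1 of 147 on array 1 and 0 of 150 on array 2 exceeded the negative controls by 3 SD. The negative controls themselves had a mean of 0.45 ± 2.33 on array 1 and 1.30 ± 2.66 on array 2 (SD over 995 and 990 spots). An amount below these limits would not have been detectable, so the 5 arms are undetected and not shown to be absent.

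**Figure D2:**
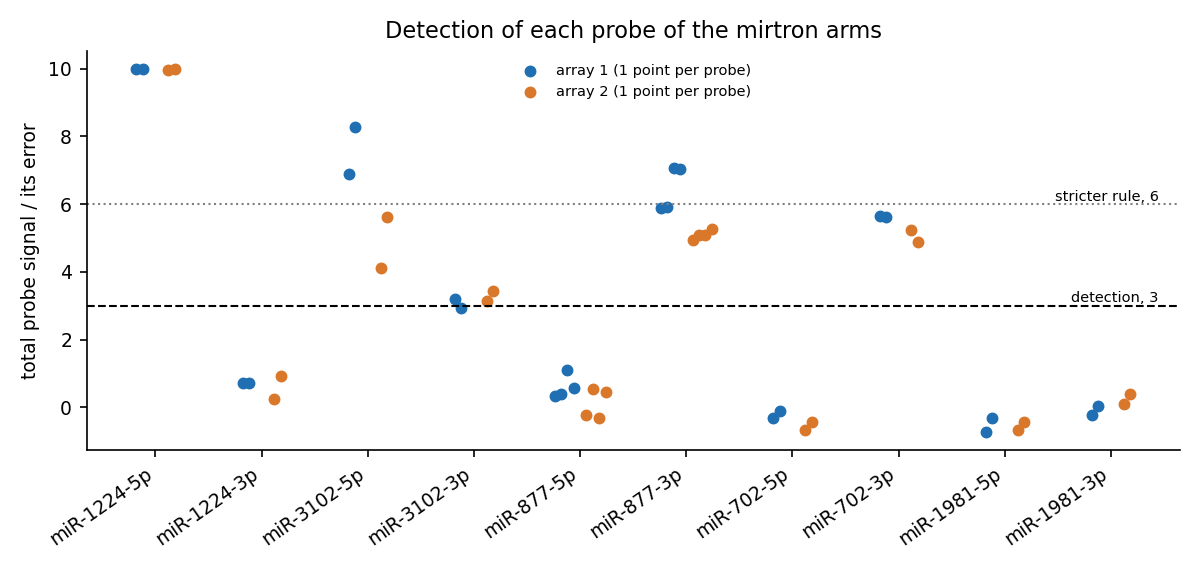
Total signal of each probe divided by its error for the 10 mirtron arms, with array 1 in blue and array 2 in orange and 1 point per probe. The dashed line is the detection rule at 3 and the dotted line the stricter rule at 6. All probes of miR-1224-5p lie at about 10 on both arrays, those of miR-3102-3p between 2.92 and 3.42, and the undetected arms at or below 1.10.

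How firmly an arm was detected varied with the rule. When most spots of a name had to be well above background on both arrays, 4 arms passed, miR-3102-3p being the one lost, and 4.68% of all names. With a signal over 6 times the error on both arrays, miR-1224-5p alone of the 10 passed, and 4.52% of all names. Requiring the mean intensity to exceed the negative controls by 3 SD kept the same 5 arms, and 8.72% of all names passed. Among the 5, miR-1224-5p, miR-3102-5p, miR-877-3p and miR-702-3p had every probe detected on both arrays, as did 57.7% of all names detected on both.

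The detected mirtron arms differed less between the arrays than the median name detected on both before scaling, miR-3102-5p being the exception. The level of a name was its mean log2 processed intensity over probes and spots. Unscaled log2 levels were 10.21 and 9.85 for miR-1224-5p, 5.05 and 3.98 for miR-3102-5p, 3.08 and 3.29 for miR-3102-3p, 4.57 and 4.09 for miR-877-3p and 4.25 and 4.09 for miR-702-3p, on array 1 and array 2 respectively. The differences, array 1 minus array 2, were thus 0.36, 1.07, -0.21, 0.48 and 0.16, with a median of 0.36. Across the 201 names detected on both arrays the median was 0.78, with quartiles of 0.19 and 1.66. Names detected on 1 array only were left out, and 312 names were detected on array 1 against 202 on array 2. A dim name much brighter on array 1 was thus not counted if it fell under the limit on array 2. No mirtron arm was lost in this way. Array 1 was the brighter for 4 of the 5 mirtron arms and for 87.1% of the 201. The difference was over 2-fold for miR-3102-5p alone, and for 42.8% of the 201. The 4 detected spike-in controls were brighter on array 1 by 0.06 to 0.17.

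Detected arms of canonical miRNAs that also lie in introns differed more between the arrays. Arms of 17 such hairpins were listed, among them those of mir-25, mir-93 and mir-106b in Mcm7 and mir-103 and mir-107 in the Pank genes. These precursors are cut out of introns by Drosha and not by splicing. On the array were 32 of their arms, of which 11 were detected on array 1, 5 on array 2 and 5 (15.6%) on both arrays. They were brighter on array 1 by 2.16 for miR-103-3p, 2.13 for miR-106b-5p, 1.93 for miR-15b-5p, 1.66 for miR-93-5p and 1.59 for miR-25-3p. The lowest of these values was above the highest of the 5 mirtron arms, 1.07. Values this high were not particular to this list: over the 201 detected names the upper quartile was 1.66 and the highest value 3.09. Canonical arms detected on array 1 alone have no part in these differences. The lists also differed in base composition. The 31 canonical arms with a sequence had medians of 22.7% G and 22.7% C. The mirtron 5p arms had a median of 57.1% G and the mirtron 3p arms one of 54.5% C. This list was drawn up with earlier results of these arrays known, and neither the gap nor its cause was tested.

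The names from miR-6896 to miR-7094 were set beside the mirtrons as well. Of their hairpins with a sequence, 92.8% ended with AG, against 23.7% of all hairpins in the table. Their 5p arms seldom had the other intron end: 8.47% of 177 began with GU, against 5.58% of all 5p arms and each of the 5 mirtron 5p arms. Of 201 5p arms of this range, 21 (10.4%) were detected on both arrays, and of 199 3p arms, 15 (7.54%). The 3p arms were brighter on array 1 by a median of 0.27, with a range from -0.01 to 0.76, and the 5p arms by a median of 0.96, from -0.47 to 2.41. The 3 detected mirtron 3p arms, at -0.21, 0.16 and 0.48, had a median of 0.16, and the 2 detected 5p arms were at 0.36 and 1.07. Over all detected names the medians were 0.29 for 74 3p arms and 1.33 for 76 5p arms. The cause of the difference between the arrays was not tested.

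**Figure D3:**
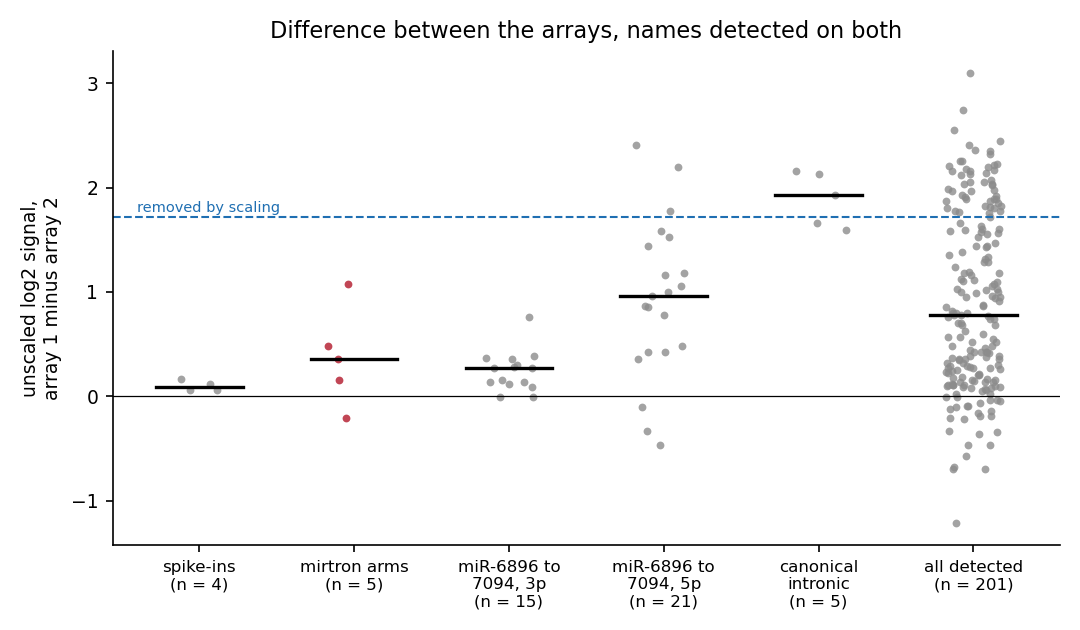
Unscaled log2 signal on array 1 minus that on array 2 for the 4 detected spike-in controls, the 5 detected mirtron arms (red), detected 3p and 5p arms from miR-6896 to miR-7094, detected arms of canonical intronic miRNAs and all 201 detected names, 1 point each with a black bar at the median. The mirtron arms lie between -0.21 and 1.07, below the canonical arms (1.59 to 2.16) and below the dashed line at 1.71, the amount that scaling removed.

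The direction of these differences depended on the scaling. When each array was set to its 75th percentile over the detected names, 1.71 was taken from array 1 relative to array 2. The mirtron arms then were dimmer on array 1 in 5 of 5 cases, as were 75.1% of the 201. For 4 of them the sign had changed, while miR-3102-3p was dimmer on array 1 without scaling too. With the percentile over all names, 3 of 5 arms stayed brighter on array 1, by 0.01 for miR-1224-5p, 0.73 for miR-3102-5p and 0.14 for miR-877-3p. With quantile normalization 1 of 5 did, miR-3102-5p, by 0.12. Mean scaled log2 levels were 10.03 ± 0.96 for miR-1224-5p, 4.52 ± 0.45 for miR-3102-5p, 3.19 ± 1.36 for miR-3102-3p, 4.33 ± 0.87 for miR-877-3p and 4.17 ± 1.10 for miR-702-3p (SD, n = 2). On that scale 4 of 5 arms lay over 2-fold apart between the arrays, miR-3102-5p being the exception, against 48.8% of all detected names. The count was 1 of 5 with quantile normalization (21.9% of all detected names) or no scaling and 0 of 5 with the percentile taken over all names (34.8%). The 1 arm was miR-3102-3p with quantile normalization and miR-3102-5p with no scaling. The SDs of the scaled levels therefore carry the choice of scaling. For miR-1224-5p, miR-3102-3p, miR-877-3p and miR-702-3p the SD between the arrays without scaling was smaller, 0.25, 0.15, 0.34 and 0.11, and for miR-3102-5p it was larger, 0.76.

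**Figure D4:**
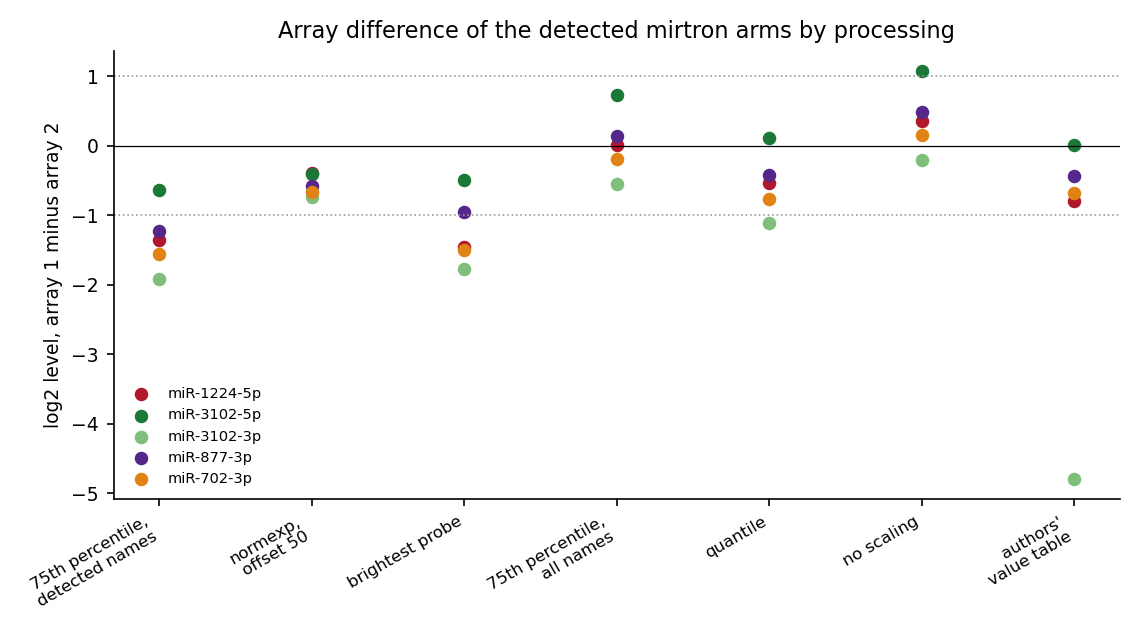
Log2 level on array 1 minus that on array 2 for the 5 detected mirtron arms under 7 ways of processing, with dotted lines at a 2-fold difference in either direction. All 5 points lie below 0 with the 75th percentile over detected names, 4 lie above 0 with no scaling, and miR-3102-3p lies at -4.80 in the authors' value table.

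In the authors' deposited table of log2 values, the widest gap among the members belonged to the arm at the detection limit. miR-3102-3p stood there at -2.24 for array 1 and 2.56 for array 2, a difference of -4.80 or 27.8-fold in linear terms. The lowest value of the members was -3.32, held on both arrays by miR-1224-3p, miR-702-5p and both arms of mir-1981. The -2.24 of array 1 was therefore near that floor, and the fold depends on it. On the scanner's own scale its unscaled levels differed by -0.21. With quantile normalization of these levels the difference was -1.11. The sum of its detected probes was 2.01 on array 1, from 1 probe, and 4.31 on array 2, from both, a ratio of 2.15. The remaining detected arms differed in the authors' deposited table by -0.80 for miR-1224-5p, 0.02 for miR-3102-5p, -0.43 for miR-877-3p and -0.67 for miR-702-3p. The authors' deposited table also gave miR-877-5p a value of -2.10 on array 2, above that floor of -3.32, although none of the 4 probes was detected there.

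The mirtron 5p arms were rich in G and the 3p arms rich in C. G made up between 41.7% and 61.9% of the 5p arms, with a median of 57.1%, and C between 38.1% and 59.1% of the 3p arms, with a median of 54.5%. Over all array names with a RefSeq sequence (1608 of 1881), the median was 26.3% for G and 22.7% for C. The arms from miR-6896 to miR-7094 were skewed the same way, with a median of 43.5% G in 177 5p arms and of 40.9% C in 175 3p arms. miR-1981-5p (41.7% G) and miR-1981-3p (38.1% C) lay below these medians, and the other mirtron arms lay above them. Names with 50% G or more were detected on both arrays in 29 of 117 cases (24.8%), and 4 mirtron arms were among the 117, of which miR-1224-5p and miR-3102-5p were detected and miR-877-5p and miR-702-5p were not. Names with 50% C or more were detected in 18 of 63 cases (28.6%). The 63 included miR-877-3p and miR-702-3p, both detected, and miR-1224-3p, which was not. Of the 1428 names below 50% in both bases, 8.47% were detected, among them miR-3102-3p of 3 mirtron arms. The cut at 50% was chosen after the values were seen. Whether composition had a part in detection was not tested.

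The difference between the arrays before scaling also varied with base composition, given first by the share of C. Its median over detected names was 1.62 for 32 names under 10% C, 1.18 for 44 names from 10% to under 20%, 0.97 for 36 names from 20% to under 30%, 0.26 for 25 names from 30% to under 40%, 0.20 for 13 names from 40% to under 50% and 0.16 for 15 names from 50% to under 60%. For the 3 names from 60% to under 70% it was higher again, 0.36. In the class from 50% to under 60% stood miR-877-3p (0.48) and miR-702-3p (0.16), and in that from 40% to under 50% miR-3102-3p (-0.21). By this share, miR-1224-5p (0.36), with under 10% C, lay below the median of its class. miR-3102-5p (1.07), from 10% to under 20%, lay close to that of its own. The part of composition in the difference was not tested.

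**Figure D5:**
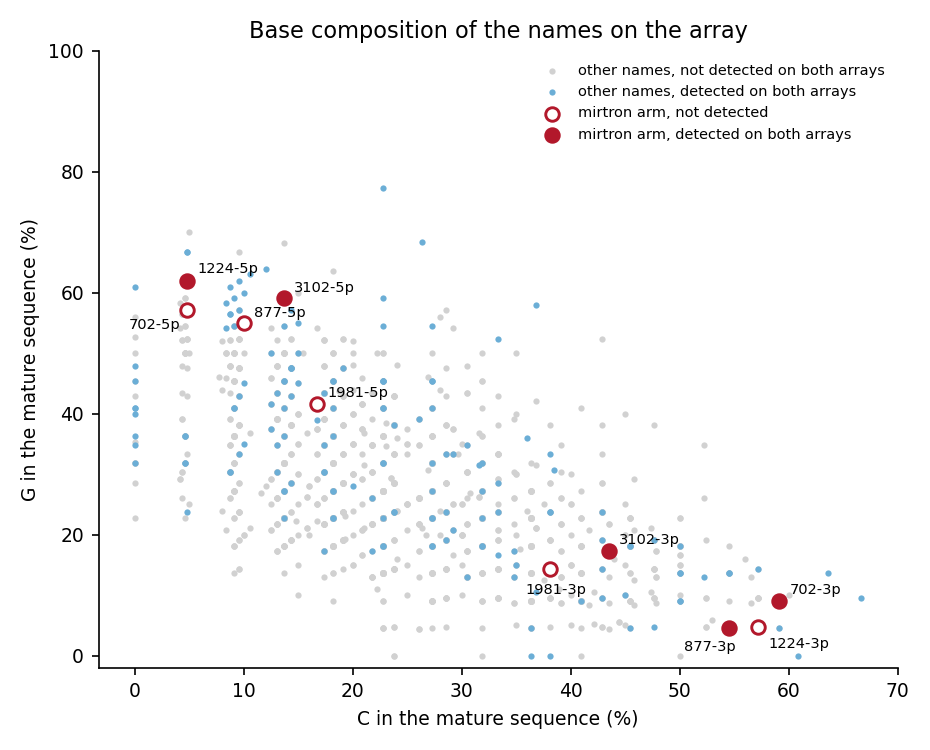
Percent of C (horizontal axis) and of G (vertical axis) in the mature sequence of the 1608 array names with a RefSeq sequence, with names detected on both arrays in blue, the others in grey, and mirtron arms as red circles, filled where detected. The mirtron 5p arms lie at 41.7% G or more and the 3p arms at 38.1% C or more, and filled and open circles occur in both groups.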

How the data were processed

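RNA from exosomes of 2 samples was hybridised to 1 array each. Per the submitters' processing notes, the deposited scanner files come from Agilent Feature Extraction 10.7.1.1. They hold a processed intensity for each spot, from which background was subtracted after spatial detrending inside the array, per the file headers, with no step between arrays. The deposited value table has log2 values, a scale worked out by comparison, and its centring is unknown here. Per the labels' protocols, dye was added with a kit for cRNA, whereas the file headers name a miRNA scanner protocol.

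Each array had 58594 spots, 56430 of them for 4415 probes of 1881 miRNAs, and 0 were saturated. Spots flagged as population outliers were left out, 5 of the 300 mirtron spots on array 1 and 2 on array 2. Intensities under 1 were set to 1 before log2, then spots and probes were averaged. Each array's 75th percentile over names detected on both (6.29 and 4.58) was subtracted and the mean of both added back. With 2 arrays precision is limited.

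The members, lists and thresholds were chosen with earlier results of these data known. The rule named all 10 members, the inner mir-3102 arms and comparison list members where 10 or fewer were detected, and a few other names were chosen after their values were seen. Sequences and gene spans are from RefSeq tables (GRCm38.p6), matched by name. The calculations used Python 3.11.15 (numpy 2.4.6, pandas 2.3.3), and R 4.3.3 (limma 3.58.1) for the normexp correction, and were tested on simulated arrays. There every detected name had the same shift between the arrays, so the scaling was not tested for a difference that varies between names, as it does here. Alternatives were other detection rules, normexp with an offset of 50, the brightest probe, other scalings, the authors' table and each array alone.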

Additional observations from a re-analysis of the deposited data

How the results depend on the processing

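The count of detected mirtron arms was 5 under the rule used, with either array left out, on at least 1 array and against the negative controls, and 4 with the majority of spots well above background. It fell to 1 when the signal had to be over 6 times its error. The count of arms over 2-fold apart between the arrays, 4 as scaled, was 3 with the brightest probe, 1 each with quantile normalization, no scaling and the authors' value table, and 0 with the percentile over all miRNAs. It was also 0 with normexp and an offset of 50, and the cause was not tested. Where the count was 1, the arm was miR-3102-3p with quantile normalization and in the authors' value table, and miR-3102-5p with no scaling. Over all 201 detected names the same counts were 98 as scaled, 91, 44, 86, 71, 70 and 3. Scaling shifted the median difference between the arrays from 0.05 to -1.66 over all 1881 names. The mean level over both arrays cannot move without scaling or with the percentile over all miRNAs. Of the 30 levels of the detected arms under the other alternatives, 19 stayed within 1 SD of the value given and 11 did not, 4 of these under normexp and 4 in the authors' value table. The SD used here was that of the scaled levels, which carries the choice of scaling, and each array alone was taken unscaled. Normexp and the authors' value table have scales of their own. The split therefore does not measure how robust the levels are. Signal over background limits miR-3102-3p and the 5 undetected arms most. No paired analysis was possible because there was 1 group.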

Other observations

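Some array names share stretches of sequence with the mirtron arms, and the sequences of the probes were not analysed here. Only the 1608 of 1881 names with a RefSeq sequence could be compared. The longest run that miR-1224-5p shared with another name was 11 bases, uggggaggugg, in miR-7030-5p, which was detected on neither array (unscaled log2 levels of 2.06 and 0.13). miR-1982-5p, with 9 bases in common, was detected on both (4.14 and 3.20). Of the undetected arms, miR-877-5p shared 8 bases with miR-3473b, which was detected at 10.95 and 9.62. miR-702-5p, also undetected, shared 10 bases with miR-5132-5p, detected on both arrays at the low levels of 2.02 and 1.94. Of the detected arms, miR-702-3p shared 9 bases with miR-6924-3p, which was detected on both arrays. miR-3102-5p shared 10 bases with miR-1934-3p, which was detected on array 1 alone. miR-877-3p shared 10 bases with miR-487b-5p, and miR-3102-3p shared 8 with miR-3086-5p, other names that were detected on neither array. Whether shared stretches added to any signal was not tested.

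Among all 5p arms of the array that begin with GU, 6 of 37 were detected on both arrays, 2 of them mirtron arms, where the share over all 5p arms was 9.81%. All 6 were among the 24 that begin with GUG, and 0 were among the other 13, a number too small to tell 0 from that share. miR-1224-5p, miR-3102-5p and miR-702-5p begin with GUG, the last of them undetected, whereas miR-877-5p and miR-1981-5p, which begin with GUA, were both undetected. This split was noticed after the values were seen and was not tested.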
